A study of Mus musculus with 12 samples.

Results

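The cell division genes described here are 38 genes that a cell switches on to copy its DNA and divide, measured in primary adipocytes of mouse epididymal fat. They were taken from the deposited table by gene symbol, 38 of 24541 genes and 57 of 36779 transcripts, and the estimated reads of a gene's transcripts were summed. Of the 38, 26 act mainly in G2 phase and mitosis (G2/M) and 12 mainly at the start of DNA synthesis (G1/S). Poly-A RNA was sequenced in 12 libraries from C57BL/6N mice, 3 in each of 4 groups. Young WT is Crtc2 f/f (floxed Crtc2, the control) at 3 months of age, and old WT is the same genotype at 18 months. Young AKO and old AKO are the same ages with Crtc2, a coactivator of the cyclic AMP responsive factor CREB, deleted in adipocytes per the label. The labels name neither the Cre line nor the mouse behind each library, so p-values measure the spread between libraries, which may be technical.

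A dividing cell first loads the MCM helicase onto its DNA and makes nucleotides under the control of E2F factors. It then builds a spindle, and cyclin B with the kinase CDK1 drives it into mitosis until the anaphase promoting complex destroys the cyclin. Messenger RNAs of these genes are low in resting cells and rise together in cycling ones, under E2F and DREAM repressor complexes, the MuvB core and the factor FOXM1. Mature fat cells are generally regarded as non-dividing, whereas progenitors, endothelial cells and macrophages of fat tissue can divide.

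Libraries held 45935795 to 61125366 estimated reads, and the members took 0.0117% to 0.0575% of them. Crtc2 was higher in both groups labelled AKO, with 53.9, 67.2 and 79.4 CPM in young WT, 164, 300.3 and 280.2 in young AKO, 45.3, 51.6 and 49.96 in old WT and 151, 161 and 154 in old AKO. The table gives a single value for the whole Crtc2 transcript, so a deleted exon would not show, and AKO and WT below mean the libraries as labelled. A pair of libraries stood apart from their groups in a principal component analysis of all genes: old WT replicate 3, at 71.6 on the first component (56.1% of variance) where its group mates had 44.9 and 40.5, and young WT replicate 1, at 16.3 on the second (13.9%) where its group mates had -21.7 and -25.0. The adipocyte markers Adipoq (2806 to 6624 CPM) and Plin1 (987 to 2451 CPM) were high in every library, where CPM is the TMM-scaled read count relative to library size.

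Promoter windows from RefSeq (build GRCm38.p6, the mm10 assembly of the files), 250 bases before to 50 after each start, were held for 31 of the 38 members. They were searched on both strands for the CHR element (TTTGAA or TTTAAA) and the CCAAT box, letters known from promoters of mitosis genes, and for an E2F octamer (TTTCCCGC, TTTGGCGC, TTTCGCGC or TTTGCCGC). The windows below show the 160 bases before the start of 8 members, read 5′ to 3′ along the gene's strand, with every match in capitals on either strand. Cdk1, Ccnb1 and Ube2c are shown because they carry CCAAT boxes spaced 30 to 35 bases apart beside a CHR, Top2a for its run of CCAAT boxes, Cdc20 because it rose with age in both genotypes, and Kif11 because its old AKO libraries all lay below its young AKO libraries. Mcm5 and Mcm6 show the E2F letters of replication genes.
Cdk1 chr10:69352913-69353072 (- strand): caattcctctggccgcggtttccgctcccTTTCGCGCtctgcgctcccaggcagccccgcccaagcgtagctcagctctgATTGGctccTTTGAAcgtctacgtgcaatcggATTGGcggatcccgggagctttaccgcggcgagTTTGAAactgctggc
Ccnb1 chr13:100786487-100786646 (- strand): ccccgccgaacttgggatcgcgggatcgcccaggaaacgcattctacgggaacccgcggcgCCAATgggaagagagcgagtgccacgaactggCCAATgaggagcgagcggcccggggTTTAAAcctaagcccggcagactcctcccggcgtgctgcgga
Cdc20 chr4:118437344-118437503 (- strand): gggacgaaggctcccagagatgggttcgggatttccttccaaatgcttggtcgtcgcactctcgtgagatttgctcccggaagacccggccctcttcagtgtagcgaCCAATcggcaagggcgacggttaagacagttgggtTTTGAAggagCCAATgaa
Top2a chr11:99024190-99024349 (- strand): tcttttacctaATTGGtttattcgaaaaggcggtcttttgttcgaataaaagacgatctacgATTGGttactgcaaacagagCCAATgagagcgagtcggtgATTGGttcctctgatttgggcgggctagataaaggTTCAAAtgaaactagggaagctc
Kif11 chr19:37376222-37376381 (+ strand): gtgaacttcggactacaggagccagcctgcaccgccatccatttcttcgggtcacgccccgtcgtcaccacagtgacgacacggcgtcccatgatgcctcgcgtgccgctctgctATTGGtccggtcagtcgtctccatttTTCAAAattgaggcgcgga
Ube2c chr2:164769769-164769928 (+ strand): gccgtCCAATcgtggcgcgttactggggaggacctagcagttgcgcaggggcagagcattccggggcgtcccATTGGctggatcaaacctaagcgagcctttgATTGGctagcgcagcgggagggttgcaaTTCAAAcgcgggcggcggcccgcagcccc
Mcm5 chr8:75109349-75109508 (+ strand): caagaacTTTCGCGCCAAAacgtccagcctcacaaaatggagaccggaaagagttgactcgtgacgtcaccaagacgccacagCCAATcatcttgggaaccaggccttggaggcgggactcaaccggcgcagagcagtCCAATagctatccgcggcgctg
Mcm6 chr1:128359706-128359865 (- strand): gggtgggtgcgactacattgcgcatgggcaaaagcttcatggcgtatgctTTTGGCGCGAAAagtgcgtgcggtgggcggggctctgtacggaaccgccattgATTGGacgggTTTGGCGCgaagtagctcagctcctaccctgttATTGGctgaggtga

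Of the 20 G2/M members with a window, 18 held a CHR (90.0%) and 18 a CCAAT box (90.0%), against 30.6% and 41.1% of all 27025 genes with a window. Both letters stood in 17 of the 20 (85%), against 13.4% of all genes. In Cdk1 the last CHR begins 15 bases before the start, with CCAAT boxes beginning 80 and 48 bases before it, and Ccnb1 has its CHR at 42 and its boxes at 99 and 67. Such a spaced pair of boxes occurred in 7 G2/M members (35%: Aurka, Ccnb1, Ccnb2, Cdca3, Cdca8, Cdk1 and Ube2c), in 0 of the 11 G1/S members with a window and in 1.85% of all genes. Nusap1 and, among G1/S members, E2f1 and Tyms had none of the searched letters, Bub1 lacked the CHR and Birc5 lacked the CCAAT box.

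The order was the other way round for the E2F octamers, which occurred in 4 of 11 G1/S windows (36.4%: Cdc6, Mcm3, Mcm5 and Mcm6), in Cdk1 alone of the 20 G2/M windows (5.0%) and in 2.60% of all genes. A CHR occurred in 36.4% and a CCAAT box in 63.6% of the G1/S windows. In Mcm5 and in Mcm6 a pair of octamers on opposite strands overlap each other, so 1 stretch of letters counts as 2 matches. Between different motifs the only overlap in a member lay in Cdca8, where a CHR meets a CCAAT box. The Cdc6 window belongs to a start that lies inside the gene as the table places it. Prc1 had 2 windows and counts as holding a motif if either does. A match is a run of letters and not a shown binding site, and a window without a match says only that these letters are not in it.

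**Figure D1:**
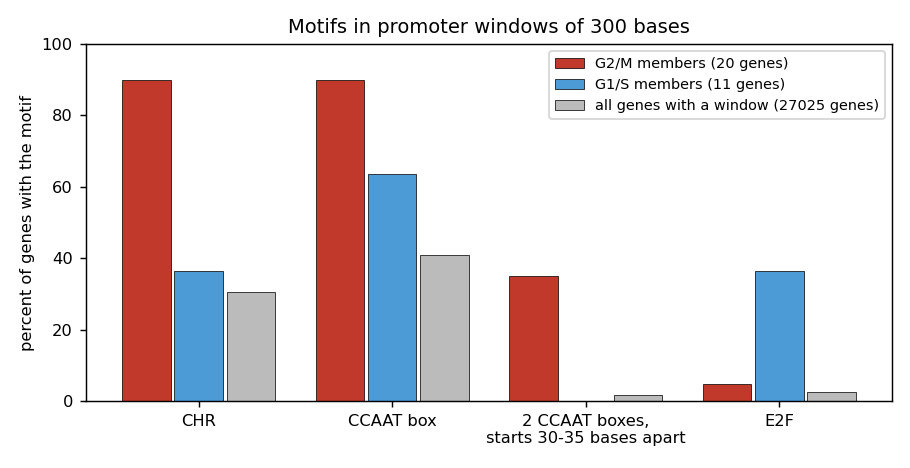
Percent of genes whose 300-base promoter window holds each motif (vertical axis), for 20 G2/M members (red), 11 G1/S members (blue) and all 27025 genes with a window (grey). CHR and CCAAT boxes stand at 90.0% in G2/M members against 30.6% and 41.1% of all genes, and the E2F bar is highest in G1/S members at 36.4%.

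Most members were present at low levels. Per transcript length, Pcna, the sliding clamp of the replication fork, had the highest level with a mean of 50.5 FPKM (reads per transcript length and depth) over 12 libraries, E2f1 followed at 5.98 and the kinetochore gene Cenpf had the lowest at 0.0584. Mean FPKM lay below 1 for 22 of the 38. All 38 passed the filter on low counts, Bub1 only through the old WT libraries, so it could be tested only because it was high there and its calls carry no weight. It is counted in the numbers below. For the members as a whole, the counts of edgeR calls over the 37 other members are given beside the main counts. Counts by phase, by role and of libraries that do not overlap include Bub1.

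The shared pattern was a high level in old WT. All 3 old WT libraries lay above all 9 others in 27 of 38 members, against 12.5% of all 15068 genes tested. Old WT replicate 3 was the highest of the 12 libraries for 37 of 38 members (20.1% of all genes), the exception being Ccne1. Its level was 1.09 to 5.18 times the mean of the other old WT libraries, with a median of 2.93 over the members and 0.991 over all genes. Old WT replicates 1 and 2 on their own lay above the 9 libraries of the other groups in 27 of 38 members, against 15.6% of all genes. Old WT replicate 1 was above replicate 2 in 34 of 38, a count for which the share over all genes was not computed.

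**Figure D2:**
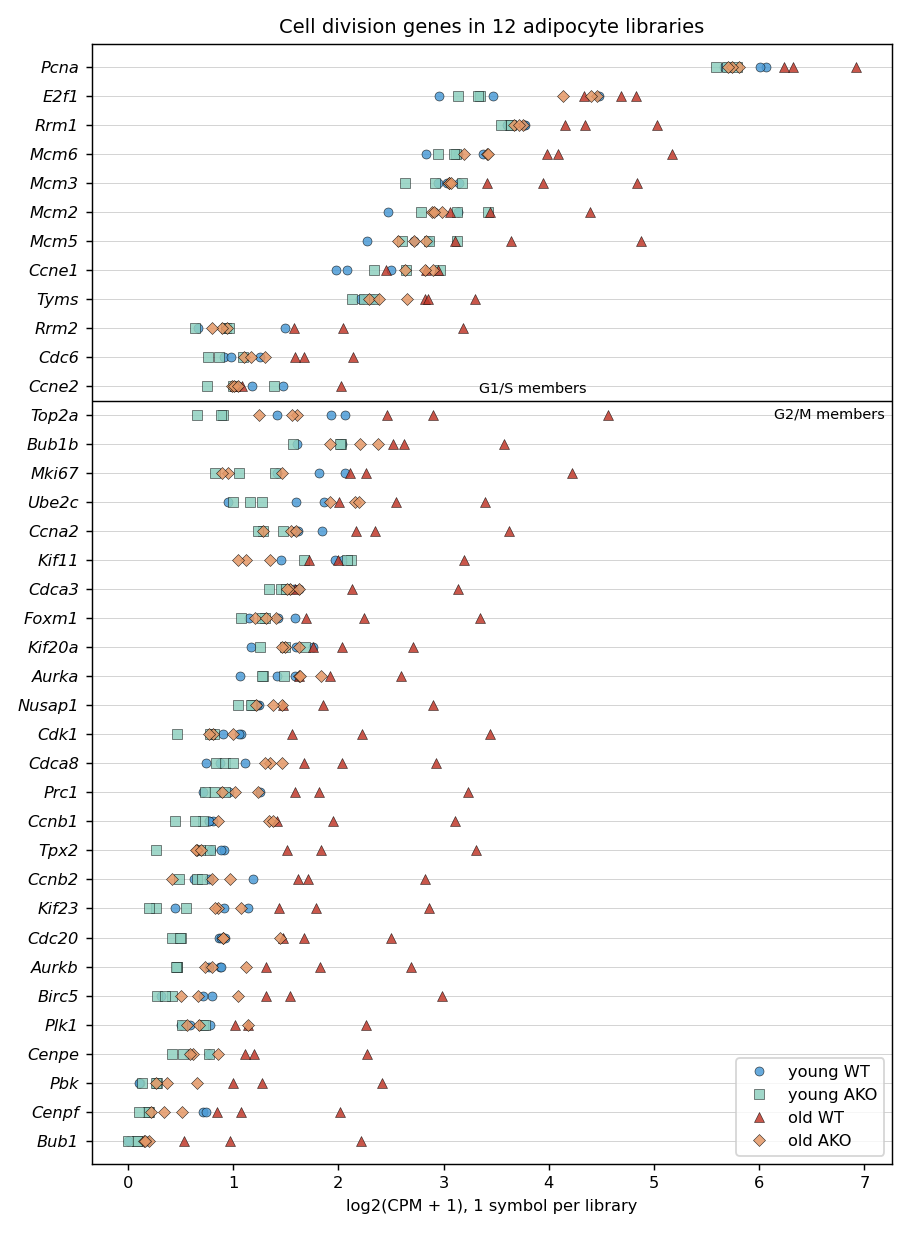
Level of each cell division gene in each of the 12 libraries as log2(CPM + 1), 1 symbol per library, with G1/S members above the line and G2/M members below, each ordered by mean level. Red triangles (old WT) lie to the right in most rows, and the rightmost triangle is old WT replicate 3 in 37 of 38 members.

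Summed over the 26 G2/M members, the level was 28.0, 36.2 and 34.5 CPM in young WT, 24.8, 22.8 and 25.6 in young AKO, 74.2, 55.2 and 203 in old WT and 38.2, 31.3 and 31.7 in old AKO. Each old WT library lay above the 9 others, replicate 3 by far. Summed over the 12 G1/S members, the level was 114, 130.1 and 122 CPM in young WT, 119.7, 108 and 104 in young AKO, 194, 166 and 319.5 in old WT and 133, 122 and 124 in old AKO. The old WT libraries again lay above all others, by a smaller factor.

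Markers of other cell types in the preparation were set beside these sums. The summed level of 18 macrophage markers was 787, 947 and 546 CPM in young WT, 495, 493 and 419 in young AKO, 2639.6, 1566 and 8646 in old WT and 729.6, 822 and 590.1 in old AKO. It ordered the old WT libraries in the same way as the G2/M sum, with replicate 3 highest and replicate 2 lowest, and none of the 18 was at 0 in all libraries. This order was not particular to macrophage markers: neutrophil markers summed to 15.6, 11.6 and 16.8 CPM in old WT, and epididymis markers had the order too. The 14 adipocyte markers summed to 53939 to 68938 CPM in old WT, lowest in replicate 3, and to 91239 to 108558, 93249 to 118883 and 81903 to 90272 in young WT, young AKO and old AKO. In RNA of a whole cell preparation, fewer cells of a type and less RNA per cell cannot be told apart, and the part of the macrophage content in the results below was not tested.

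**Figure D3:**
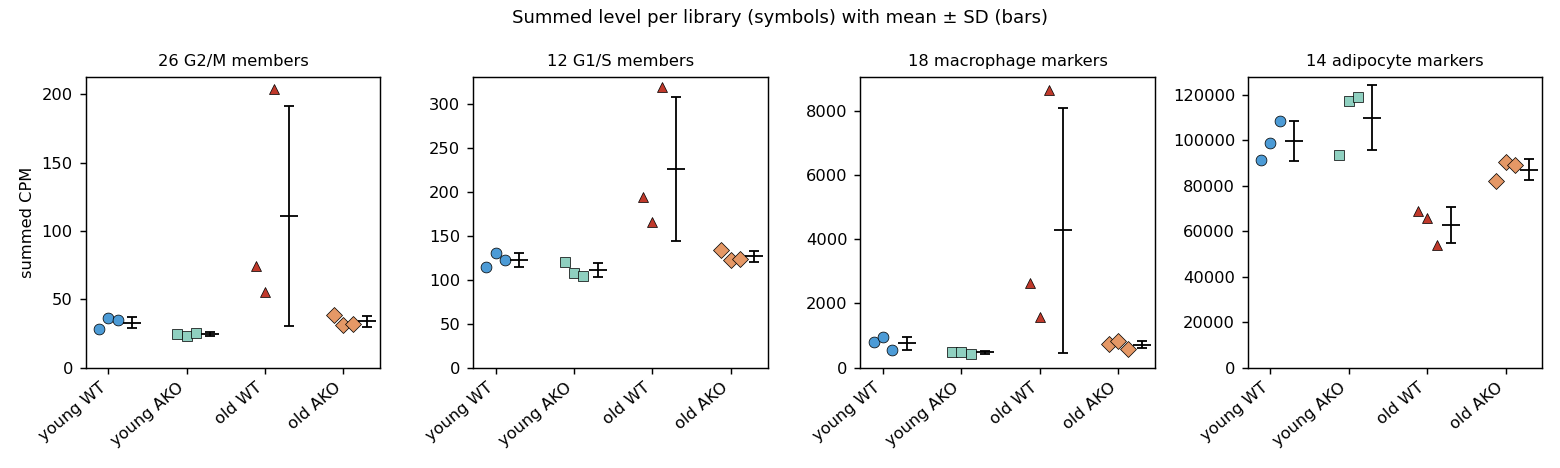
Summed CPM (vertical axis, separate linear scales from 0) of the 26 G2/M members, the 12 G1/S members, 18 macrophage markers and 14 adipocyte markers in each library, with the mean ± SD of each group of 3 as a bar beside it. Old WT is the highest group in the first 3 panels and the lowest in the adipocyte panel, and old WT replicate 3 is at 203 CPM for the G2/M members.

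Between 3 and 18 months, cell division genes rose in the WT adipocyte preparations. The edgeR quasi-likelihood test (adjusted p under 0.05 by Benjamini-Hochberg over all genes tested) called 29 of 38 members higher in old WT and 0 lower, where 14.2% of all genes were called higher and 8.73% lower. The log2 fold change was above 0 in all 38, with a median of 1.62 against 0.03 over all genes. Of the 26 G2/M members 21 rose (median 1.87), and of the 12 G1/S members 8 rose (median 0.94). Leaving Bub1 out, 28 of 37 rose, and the largest value among them was that of the mitotic kinase Pbk at 4.19 ± 0.71. It rests on only 4, 11 and 4 estimated reads of Pbk in young WT. All 3 old WT libraries lay above all 3 young WT libraries in 31 members, against 23.0% of all genes. The 9 that did not pass were Ccne1, Ccne2, Cenpf, Kif11, Kif20a, Cdca3, Mki67, Mcm2 and E2f1. Over the same ages 15 of 18 macrophage markers rose (median 2.61) and 7 of 14 adipocyte markers fell (median -0.52).

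Without old WT replicate 3, 10 members rose with age in WT (Aurkb, Ccnb1, Cdc20, Cdca8, Cdk1, Mcm3, Mcm6, Pbk, Rrm1 and Tyms), where 8.19% of all genes were called higher, with a median of 0.94 and 37 of 38 above 0. Leaving out young WT replicate 2 gave 19 calls (15.4% of all genes called), leaving out young WT replicate 3 gave 12 (9.85%), and a fit of the 6 WT libraries alone gave 2 (7.20%).

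At 18 months, cell division genes were lower in AKO than in WT. Of the 38 members 17 fell and 0 rose, where 5.16% of all genes were called lower and 0.796% higher, and the median log2 fold change was -1.46 against -0.01 over all genes. Leaving Bub1 out, 16 of 37 fell. The 12 G2/M members that fell were Cdk1, Ccnb2, Ccna2, Aurkb, Bub1, Pbk, Kif11, Tpx2, Prc1, Mki67, Top2a and Foxm1, and the median of the 26 was -1.82. The 5 G1/S members that fell were Mcm3, Mcm6, Pcna, Rrm1 and Rrm2, with a median of -0.90 over the 12. Ccne1 was the only member with a value above 0, at 0.04 ± 0.24. All 3 old AKO libraries lay below all 3 old WT libraries in 31 of 38 members, against 20.3% of all genes. DESeq2 called 30 members lower (9.49% of all genes). In the same comparison 16 of 18 macrophage markers fell (median -2.42). It shares the old WT libraries with the ageing comparison in WT, so the falls here and the rises there rest on the same 3 values.

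Without old WT replicate 3, 4 members fell in old AKO, namely Cdk1 (-1.77), Ccna2 (-1.07), Top2a (-1.61) and Rrm1 (-0.56, all log2), where 2.39% of all genes were called lower, with a median of -0.77, while 12 of 18 macrophage markers fell (median -1.505). The count was 26 without old WT replicate 2 (6.22% of all genes called) and 11 without young AKO replicate 3 (4.39%). It was 0 without old AKO replicate 1, 2 or 3, where 0.0786%, 0.0327% and 0.0261% of all genes were called. A fit of the 6 old libraries alone also gave 0 (1.38%).

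**Figure D4:**
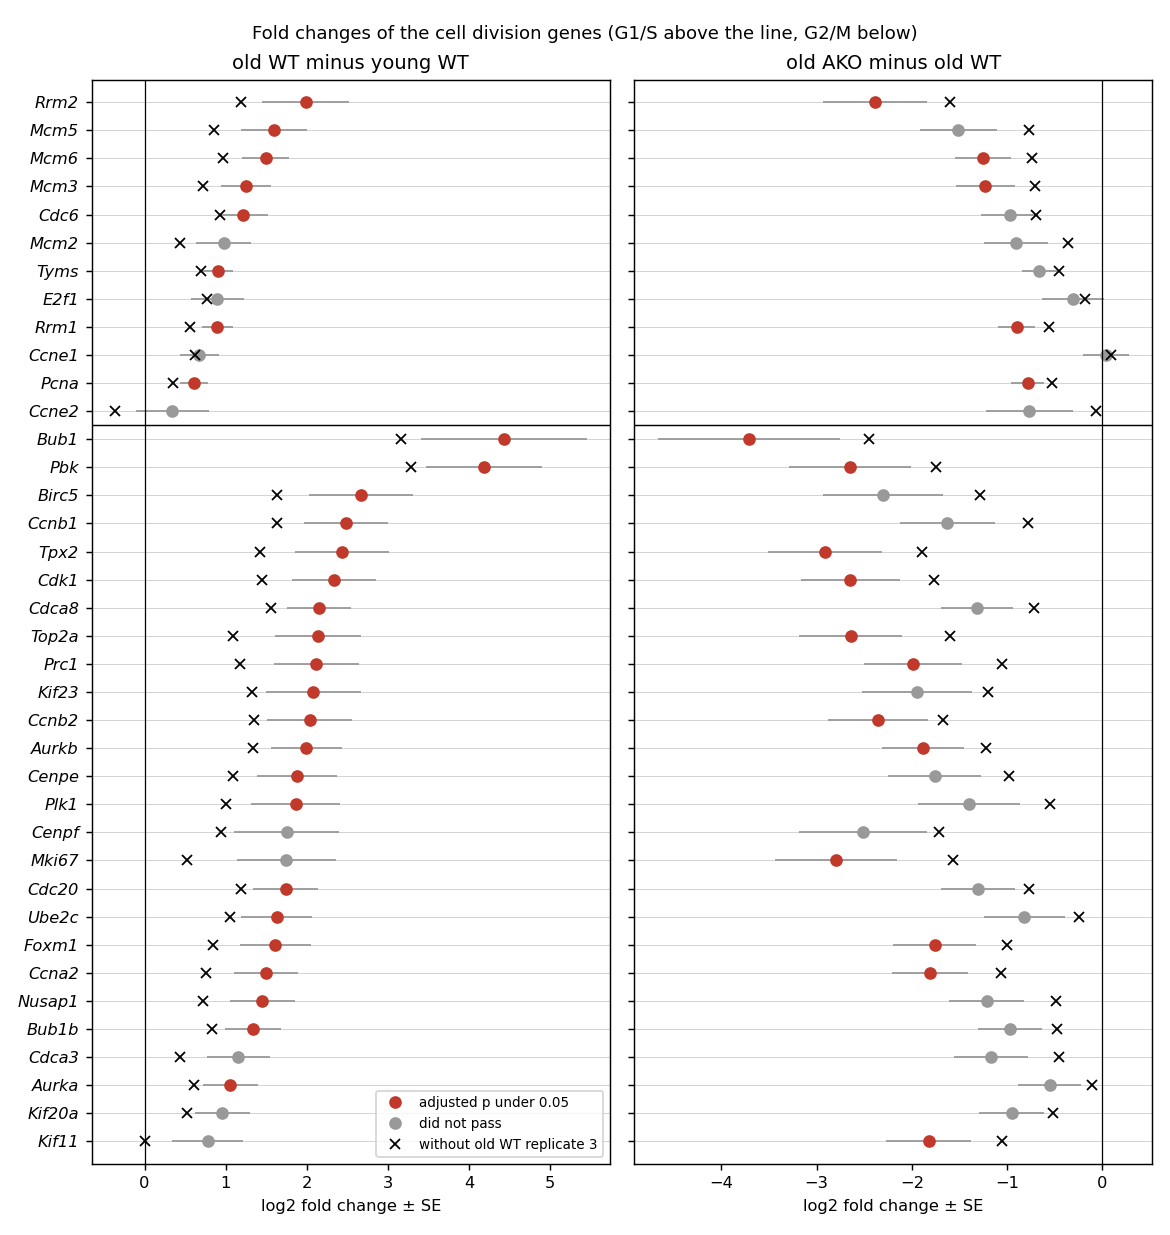
Log2 fold change ± SE of each member in old WT against young WT (left) and old AKO against old WT (right), n = 3 libraries per group, red where the adjusted p is under 0.05 in edgeR, with crosses for the fit without old WT replicate 3. All 38 points lie above 0 on the left and 37 of 38 below 0 on the right, and most crosses lie nearer to 0 than the points.

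In the AKO adipocyte preparations, 3 members rose between 3 and 18 months (edgeR log2 fold changes). They were Cdc20, which activates the anaphase promoting complex (1.57 ± 0.41), its ubiquitin-conjugating enzyme Ube2c (1.43 ± 0.44) and the transcription factor E2f1 (1.14 ± 0.33). That is 3 of 38 where 10.4% of all genes were called higher, and 0 fell where 7.93% were called lower. The median was 0.36, against -0.01 over all genes, and 34 of 38 were above 0. The 4 below 0 were Kif11 (-1.21 ± 0.45, adjusted p = 0.0808), Mcm2 (-0.23 ± 0.34), Mcm5 (-0.20 ± 0.40) and Ccne2 (-0.11 ± 0.45), and none of them passed in edgeR. All 3 old AKO libraries lay above all 3 young AKO libraries in 17 members (23.9% of all genes), and below them in Kif11 alone (21.7%). Macrophage markers rose in 5 of 18 (median 0.89). Without old WT replicate 3, whose spread the fit shares, 7 members rose (Aurkb, Ccnb1, Cdc20, E2f1, Kif23, Top2a and Ube2c) (11.6% of all genes) and Kif11 fell (7.52%). The count was 0 without young AKO replicate 1, 2 or 3 (12.8%, 14.5% and 5.42% of all genes called) or without old AKO replicate 1 (4.80%). It was 1 without old WT replicate 1 (12.8%) or without old AKO replicate 2 (7.92%) or 3 (9.81%). When the 6 AKO libraries were fitted alone, 9 of 36 members tested were called, where 24.5% of all genes were.

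In young mice 0 of 38 members passed by edgeR, where 0.976% of all genes did. An unadjusted p under 0.05 was found for 6 of 38 members and for 2943 of all 15068 genes. DESeq2 called 1, Top2a, lower in young AKO (6.26% of all genes). The median log2 fold change was -0.30, against 0.01 over all genes, and 31 members were below 0. G2/M members had a median of -0.51 and G1/S members one of -0.13. All 3 young AKO libraries lay below all 3 young WT libraries in 9 members (11.0% of all genes) and above them in 0 (9.60%). The values for the 7 members above 0 were 0.57 for Ccne1, 0.49 for Pbk, 0.30 for Mcm2, 0.28 for Mcm5, 0.17 for Kif11, 0.06 for Plk1 and 0.01 for Cdca8. The median of the 18 macrophage markers was -0.88. Without old WT replicate 3 Top2a alone passed, lower in young AKO by -1.74 (2.47% of all genes called lower; adjusted p = 0.0293, edgeR).

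Whether the genotype difference itself changed with age was tested as an interaction. By edgeR 0 of 38 members passed and by DESeq2 0, where 0.00664% and 0.379% of all genes passed. In edgeR 18 members had an unadjusted p under 0.05, against 1409 of all 15068 genes. The median interaction was -1.12, against -0.02 over all genes, with 37 members below 0 and E2f1 at 0.24 ± 0.46. Without old WT replicate 3 the median was -0.46. So a genotype difference that passed in old mice and not in young mice is not shown to differ between the ages.

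Of the 6 cyclins and CDK1, edgeR called 4 higher with age in WT, Cdk1, Ccnb1, Ccnb2 and Ccna2, and 3 lower in old AKO, Cdk1, Ccnb2 and Ccna2. Cdk1, the kinase that starts mitosis, stood at 0.864, 1.11 and 1.08 CPM in young WT, 0.762, 0.380 and 0.717 in young AKO, 3.68, 1.95 and 9.83 in old WT and 0.755, 0.998 and 0.707 in old AKO. Every old WT library lay above the 9 others, which stayed near or below 1. Cdk1 rose with age in WT by 2.33 ± 0.52 (adjusted p = 0.0115) and fell in old AKO against old WT (-2.65 ± 0.52, adjusted p = 0.0198, edgeR log2), and both calls held without old WT replicate 3 (1.45 and -1.77). Its cyclin partner Ccnb1 had 0.703, 0.753 and 0.709 CPM in young WT, 0.635, 0.360 and 0.551 in young AKO, 2.87, 1.66 and 7.63 in old WT and 1.53, 0.805 and 1.60 in old AKO. The lowest old WT library was just above the highest old AKO library, where replicates 1 and 3 lay well above every young AKO library. Ccnb1 rose with age in WT (2.48 ± 0.52, adjusted p = 0.00947), while in AKO its value was 1.34 ± 0.52 (adjusted p = 0.0929) and in old AKO against old WT -1.63 ± 0.50 (adjusted p = 0.0830, edgeR).

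Ccna2, the cyclin of S phase and early mitosis, had 2.07, 1.996 and 2.59 CPM in young WT, 1.44, 1.36 and 1.78 in young AKO, 4.08, 3.50 and 11.3 in old WT and 1.92, 2.03 and 1.43 in old AKO. The old WT libraries did not overlap with any other group. Ccna2 rose with age in WT (1.499 ± 0.40, adjusted p = 0.0223) and fell in old AKO (-1.81 ± 0.40, adjusted p = 0.0266, edgeR log2). The second mitotic B cyclin Ccnb2 had 0.542, 1.28 and 0.709 CPM in young WT, 0.402, 0.580 and 0.625 in young AKO, 2.28, 2.07 and 6.08 in old WT and 0.952, 0.741 and 0.337 in old AKO. Its old WT libraries were again above the 9 others, and it rose with age in WT (2.04 ± 0.52) and fell in old AKO (-2.36 ± 0.53). Ccne1, the cyclin that opens S phase with CDK2, had 4.66, 3.22 and 2.95 CPM in young WT, 6.81, 4.06 and 5.24 in young AKO, 6.70, 4.48 and 6.12 in old WT and 6.47, 5.20 and 6.09 in old AKO. Its old WT and old AKO values overlapped, and young WT had the lowest mean. Its log2 fold change was 0.68 ± 0.24 with age in WT (adjusted p = 0.0672) and 0.57 ± 0.24 in young AKO (adjusted p = 0.228, edgeR), and DESeq2 called the first (adjusted p = 0.0347). Ccne2, the other E cyclin, had 1.06, 1.26 and 1.77 CPM in young WT, 0.677, 0.999 and 1.62 in young AKO, 1.02, 1.12 and 3.07 in old WT and 0.985, 1.01 and 1.06 in old AKO. Old WT replicates 1 and 2 lay among the young libraries and replicate 3 alone stood above them, and without replicate 3 the ageing value in WT went from 0.34 to -0.36.

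All 6 mitotic kinase and checkpoint genes rose with age in WT, and 3 fell in old AKO, Aurkb, Bub1 and Pbk. Both counts include Bub1, whose calls carry no weight. Bub1b, which encodes the checkpoint kinase BUBR1, was the most abundant by CPM, with 3.07, 3.11 and 2.05 CPM in young WT, 1.97, 3.06 and 3.05 in young AKO, 5.17, 4.73 and 10.9 in old WT and 4.19, 2.79 and 3.62 in old AKO. Old WT lay above the other groups, with old AKO replicate 1 nearest to it. Its rise with age in WT was 1.34 ± 0.34 (adjusted p = 0.0196), and its value in old AKO was -0.97 ± 0.34 (adjusted p = 0.118, edgeR). The checkpoint kinase Bub1 had 0, 5 and 7 estimated reads in young WT, 3, 3 and 0 in young AKO, 62, 25 and 184 in old WT and 9, 7 and 7 in old AKO. Outside old WT it rested on fewer than 10 reads per library. Its fitted values are not read further, since it passed the filter only through old WT.

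Pbk, a mitotic protein kinase, had 0.0804, 0.207 and 0.0747 CPM in young WT, 0.212, 0.0999 and 0.202 in young AKO, 1.41, 1.00 and 4.34 in old WT and 0.574, 0.290 and 0.202 in old AKO. The old WT libraries stood above all 9 others, and the young WT values rest on 4, 11 and 4 estimated reads. Pbk rose with age in WT (4.19 ± 0.71, and 3.28 without old WT replicate 3, adjusted p = 0.0114) and fell in old AKO (-2.65 ± 0.64, adjusted p = 0.0373, edgeR). Aurkb, the Aurora kinase of the centromere, had 0.703, 0.829 and 0.840 CPM in young WT, 0.381, 0.380 and 0.367 in young AKO, 2.54, 1.48 and 5.47 in old WT and 0.656, 0.741 and 1.18 in old AKO. In young mice its 3 AKO libraries were nearly equal and all below WT, at a value of -1.07 ± 0.45 (adjusted p = 0.224), and it rose with age in WT (1.996 ± 0.43) and fell in old AKO (-1.88 ± 0.43, adjusted p = 0.0306, edgeR).

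The Aurora kinase of the spindle poles, Aurka, had 1.08, 1.68 and 1.997 CPM in young WT, 1.44, 1.80 and 1.41 in young AKO, 2.79, 2.09 and 5.05 in old WT and 2.58, 2.08 and 2.104 in old AKO. Old AKO replicates 2 and 3 were level with old WT replicate 2, and the young libraries lay below. Aurka rose with age in WT (1.06 ± 0.33, adjusted p = 0.0435) and stood at -0.55 ± 0.33 in old AKO against old WT (adjusted p = 0.356, edgeR). The polo kinase Plk1, which acts at entry into mitosis, had 0.422, 0.716 and 0.504 CPM in young WT, 0.635, 0.660 and 0.423 in young AKO, 1.21, 1.02 and 3.79 in old WT and 1.20, 0.596 and 0.471 in old AKO. Old AKO replicate 1 reached the level of old WT replicates 1 and 2, while replicates 2 and 3 stayed at young levels. Its rise with age in WT was 1.86 ± 0.55 and its value in old AKO -1.40 ± 0.53 (adjusted p = 0.153, edgeR).

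Of 4 chromosomal passenger and centromere genes, 3 rose with age in WT and 0 passed in old AKO by edgeR. All 4 had an unadjusted p under 0.05 there, as did 3319 of all 15068 genes. DESeq2 called all 4 lower, among 30 of 38 members and 9.49% of all genes. Cdca8, the passenger subunit borealin, had 1.17, 0.829 and 0.672 CPM in young WT, 0.783, 0.899 and 0.992 in young AKO, 3.09, 2.18 and 6.60 in old WT and 1.54, 1.47 and 1.75 in old AKO. Old AKO lay between the young libraries and old WT without overlap. Cdca8 rose with age in WT (2.15 ± 0.39, adjusted p = 0.00617, and 1.55 without old WT replicate 3), with -1.32 ± 0.37 in old AKO against old WT (adjusted p = 0.0659, edgeR). Birc5, the passenger subunit survivin, had 0.241, 0.734 and 0.635 CPM in young WT, 0.212, 0.340 and 0.276 in young AKO, 1.91, 1.48 and 6.90 in old WT and 1.07, 0.419 and 0.589 in old AKO. Old WT lay above all other libraries, and among the rest old AKO replicate 1 was highest. Its rise with age in WT was 2.66 ± 0.64 (adjusted p = 0.0161), and in old AKO it stood at -2.30 ± 0.63 (adjusted p = 0.0570, edgeR).

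The kinetochore motor Cenpe had 0.502, 0.490 and 0.709 CPM in young WT, 0.339, 0.700 and 0.441 in young AKO, 1.29, 1.16 and 3.82 in old WT and 0.804, 0.531 and 0.505 in old AKO. Its old WT libraries were separate from the 9 others, with a rise with age in WT of 1.87 ± 0.49 and -1.76 ± 0.49 in old AKO (adjusted p = 0.0603, edgeR). Cenpf had 0.141, 0.640 and 0.672 CPM in young WT, 0.148, 0.140 and 0.0735 in young AKO, 0.791, 1.11 and 3.03 in old WT and 0.427, 0.161 and 0.269 in old AKO. Young WT replicates 2 and 3 were close to old WT replicate 1, and neither the ageing value in WT (1.75 ± 0.65, adjusted p = 0.0745) nor that in young AKO (-2.0 ± 0.73, adjusted p = 0.164, edgeR) passed.

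Of the 6 spindle and cytokinesis genes, 4 rose with age in WT and 3 fell in old AKO. Kif11, the motor that pushes the spindle poles apart, had 1.75, 2.92 and 3.14 CPM in young WT, 3.34, 2.18 and 3.23 in young AKO, 2.98, 2.30 and 8.14 in old WT and 1.54, 1.18 and 1.06 in old AKO. Old AKO was its lowest group, below all 9 other libraries, and old WT replicates 1 and 2 lay among the young ones. Kif11 fell in old AKO against old WT (-1.83 ± 0.45, adjusted p = 0.0407) and did not pass with age in WT (0.78 ± 0.44, adjusted p = 0.214, and 0.01 without old WT replicate 3, edgeR). With age in AKO it passed in the fit without old WT replicate 3 (-1.21, adjusted p = 0.0211, edgeR).

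Tpx2, a spindle assembly factor, had 0.723, 0.885 and 0.840 CPM in young WT, 0.720, 0.200 and 0.606 in young AKO, 2.56, 1.86 and 8.88 in old WT and 0.574, 0.564 and 0.623 in old AKO. Old WT lay above the 9 others, which all stayed below 1. Tpx2 rose with age in WT (2.44 ± 0.58, adjusted p = 0.0158) and fell in old AKO (-2.91 ± 0.60, adjusted p = 0.0217, edgeR). Prc1, which bundles microtubules in the spindle midzone, had 0.944, 0.640 and 1.38 CPM in young WT, 0.889, 0.760 and 0.661 in young AKO, 2.51, 2.0 and 8.42 in old WT and 1.36, 0.853 and 1.03 in old AKO. Old WT stood apart from the rest, and Prc1 rose with age in WT (2.12 ± 0.52) and fell in old AKO (-1.99 ± 0.52, adjusted p = 0.0474, edgeR).

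Nusap1, a spindle microtubule protein, had 1.37, 1.34 and 1.27 CPM in young WT, 1.06, 1.26 and 1.25 in young AKO, 2.62, 1.77 and 6.48 in old WT and 1.76, 1.32 and 1.60 in old AKO. The lowest old WT library was level with the highest old AKO library. Its rise with age in WT was 1.45 ± 0.40, and in old AKO it stood at -1.21 ± 0.40 (adjusted p = 0.101, edgeR). The cytokinesis motor Kif23 had 0.362, 1.21 and 0.877 CPM in young WT, 0.466, 0.200 and 0.147 in young AKO, 2.45, 1.70 and 6.24 in old WT and 1.1, 0.805 and 0.774 in old AKO. Young AKO replicates 2 and 3 were the lowest of the 12 libraries and old WT the highest, and old AKO lay within the range of young WT. With age Kif23 rose in WT (2.08 ± 0.58), and in AKO it stood at 1.73 ± 0.62 (adjusted p = 0.0759, edgeR). Kif20a, another cytokinesis motor, averaged 1.88 ± 0.584 CPM in young WT, 1.80 ± 0.413 in young AKO, 3.67 ± 1.65 in old WT and 1.89 ± 0.175 in old AKO (SD, n = 3). Old WT had the highest mean, and Kif20a passed in no comparison by edgeR, while DESeq2 called it higher in old WT than in young WT (adjusted p = 0.0304; edgeR 0.96 ± 0.34, adjusted p = 0.0653).

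Of the 26 G2/M members, 2 rose with age in AKO, where 10.4% of all genes were called higher. Both, Ube2c and Cdc20, belong to the anaphase promoting complex group. Neither call held without young AKO replicate 1, 2 or 3, or without old AKO replicate 1. Ube2c had 2.63, 2.03 and 0.933 CPM in young WT, 1.23, 1.42 and 0.992 in young AKO, 4.83, 3.02 and 9.51 in old WT and 3.46, 2.79 and 3.58 in old AKO. Old AKO lay above all young AKO libraries and overlapped with old WT. Ube2c rose with age in WT (1.63 ± 0.44, adjusted p = 0.0237) and in AKO (1.43 ± 0.44, adjusted p = 0.0455, edgeR). Cdc20 had 0.824, 0.847 and 0.896 CPM in young WT, 0.339, 0.420 and 0.404 in young AKO, 2.19, 1.77 and 4.64 in old WT and 1.72, 0.869 and 0.875 in old AKO. Young AKO was its lowest group, below young WT in every library, while old AKO replicates 2 and 3 lay within the young WT range and replicate 1 just below old WT. Cdc20 rose with age in WT (1.74 ± 0.40, adjusted p = 0.0131) and in AKO (1.57 ± 0.41, adjusted p = 0.0276), and stood at -1.14 ± 0.42 in young AKO against young WT (adjusted p = 0.164, edgeR). Cdca3, a protein degraded as cells leave mitosis, averaged 1.97 ± 0.132 CPM in young WT, 1.70 ± 0.160 in young AKO, 4.40 ± 3.03 in old WT and 1.95 ± 0.127 in old AKO (SD, n = 3), and by edgeR passed neither with age in WT (1.16 ± 0.39, adjusted p = 0.0547) nor in old AKO (-1.17 ± 0.39, adjusted p = 0.109). DESeq2 called Cdca3 in both (adjusted p = 0.0207 and 0.0361).

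The proliferation markers of chromatin fell in old AKO. Top2a, the topoisomerase that untangles replicated DNA, had 1.67, 3.16 and 2.80 CPM in young WT, 0.868, 0.580 and 0.845 in young AKO, 6.44, 4.52 and 22.6 in old WT and 2.05, 1.95 and 1.36 in old AKO. By mean the groups stood in the ascending order young AKO, old AKO, young WT and old WT, with young AKO and old WT not overlapping any other group. Top2a rose with age in WT (2.13 ± 0.53, adjusted p = 0.0179) and fell in old AKO (-2.64 ± 0.54, adjusted p = 0.0217, and -1.61 without old WT replicate 3, adjusted p = 0.0314, edgeR). Mki67, which coats mitotic chromosomes and encodes the Ki-67 antigen, had 1.67, 2.52 and 3.17 CPM in young WT, 1.63, 0.780 and 1.08 in young AKO, 3.31, 3.80 and 17.7 in old WT and 0.936, 1.76 and 0.858 in old AKO. Old WT replicates 1 and 2 were close to young WT replicate 3, and old WT replicate 3 was far above all. Mki67 fell in old AKO (-2.80 ± 0.64, adjusted p = 0.0303) and did not pass with age in WT (1.75 ± 0.61, adjusted p = 0.0609, edgeR), where its value without old WT replicate 3 was 0.52.

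Of 6 replication licensing and fork genes, 5 rose with age in WT and 3 fell in old AKO. Pcna had 49.7, 65.9 and 63.5 CPM in young WT, 54.2, 50.9 and 47.2 in young AKO, 79.1, 74.5 and 120.1 in old WT and 55.1, 52.5 and 51.2 in old AKO. The old WT libraries lay above all others, while young WT replicates 2 and 3 lay above both AKO groups. Pcna rose with age in WT (0.61 ± 0.17, adjusted p = 0.0280) and fell in old AKO (-0.79 ± 0.17, adjusted p = 0.0254, edgeR). Mcm6, a subunit of the replicative helicase, had 6.11, 9.40 and 7.82 CPM in young WT, 7.70, 7.56 and 6.72 in young AKO, 16.0, 14.8 and 34.9 in old WT and 9.63, 9.73 and 8.18 in old AKO. Old WT did not overlap with the rest. Mcm6 rose with age in WT (1.49 ± 0.29, adjusted p = 0.00781, and 0.97 without old WT replicate 3) and fell in old AKO (-1.25 ± 0.29, adjusted p = 0.0327, edgeR).

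Mcm3, a further helicase subunit, had 6.69, 7.87 and 7.17 CPM in young WT, 8.0, 6.58 and 5.20 in young AKO, 14.4, 9.64 and 27.6 in old WT and 7.30, 7.29 and 7.37 in old AKO. The old AKO libraries were nearly equal and within the young range, and Mcm3 rose with age in WT (1.25 ± 0.31) and fell in old AKO (-1.23 ± 0.31, adjusted p = 0.0438, edgeR). Mcm5, of the same helicase, had 3.84, 5.59 and 6.25 CPM in young WT, 7.73, 6.28 and 5.07 in young AKO, 11.4, 7.61 and 28.4 in old WT and 5.56, 6.13 and 4.91 in old AKO. Old WT replicate 2 was just below young AKO replicate 1, so the old WT libraries did not lie above all others. Its rise with age in WT was 1.59 ± 0.41, and in old AKO it stood at -1.51 ± 0.41 (adjusted p = 0.0541, edgeR).

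The helicase loader Cdc6 had 0.884, 1.39 and 0.971 CPM in young WT, 0.698, 1.14 and 0.827 in young AKO, 2.19, 2.0 and 3.39 in old WT and 1.46, 1.14 and 1.25 in old AKO. All old WT libraries were above the rest, with a rise with age in WT of 1.22 ± 0.30 and -0.97 ± 0.30 in old AKO (adjusted p = 0.0821, edgeR). Mcm2, of the same helicase, had 4.56, 7.81 and 6.49 CPM in young WT, 9.69, 5.88 and 7.72 in young AKO, 9.84, 7.32 and 20.0 in old WT and 6.91, 6.41 and 6.51 in old AKO. Old WT replicate 2 lay within the young range, and Mcm2 passed in neither comparison (0.98 ± 0.34, adjusted p = 0.0603, and -0.91 ± 0.34, adjusted p = 0.147, edgeR).

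All 3 genes of nucleotide supply rose with age in WT, and both subunits of ribonucleotide reductase fell in old AKO. Rrm1, the large subunit, had 11.2, 12.6 and 12.7 CPM in young WT, 11.4, 10.7 and 11.4 in young AKO, 19.3, 16.8 and 31.7 in old WT and 12.5, 11.7 and 12.1 in old AKO. The 9 libraries outside old WT lay close together and all below it. Rrm1 rose with age in WT (0.90 ± 0.19, adjusted p = 0.0104) and fell in old AKO (-0.90 ± 0.19, adjusted p = 0.0242, edgeR), and without old WT replicate 3 the values were 0.56 and -0.56, both still called. Rrm2, the small subunit that limits the enzyme in S phase, had 0.583, 0.923 and 1.81 CPM in young WT, 0.910, 0.939 and 0.551 in young AKO, 3.13, 1.98 and 8.09 in old WT and 0.919, 0.853 and 0.740 in old AKO. Old WT replicate 2 lay just above young WT replicate 3. Rrm2 rose with age in WT (1.99 ± 0.53) and fell in old AKO (-2.39 ± 0.54, adjusted p = 0.0297, edgeR), and neither passed without old WT replicate 3. Tyms, thymidylate synthase, had 3.70, 4.01 and 3.62 CPM in young WT, 4.04, 3.38 and 3.75 in young AKO, 6.10, 6.23 and 8.86 in old WT and 5.28, 3.88 and 4.22 in old AKO. Old AKO replicate 1 lay between the young libraries and old WT, and the other old AKO libraries were near the young ones. Its rise with age in WT was 0.90 ± 0.19, and in old AKO it stood at -0.66 ± 0.18 (adjusted p = 0.0618, edgeR).

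The transcription factors E2f1 and Foxm1 differed in which comparisons passed. E2f1, which turns on replication genes, had 21.3, 10.1 and 6.77 CPM in young WT, 7.81, 9.19 and 9.06 in young AKO, 24.7, 19.2 and 27.3 in old WT and 21.0, 16.5 and 20.1 in old AKO. Young WT replicate 1, which stood apart on the second component, had an old level, and the other young libraries lay below every old one. E2f1 rose with age in AKO (1.14 ± 0.33, adjusted p = 0.0375), and in WT it stood at 0.90 ± 0.33 (adjusted p = 0.0706, edgeR). Without young WT replicate 1 the value in WT was 1.49 (adjusted p = 0.00149) and that in young AKO against young WT went from -0.55 to 0.05 (edgeR). Foxm1, which turns on mitosis genes, had 1.23, 1.69 and 1.997 CPM in young WT, 1.46, 1.099 and 1.41 in young AKO, 3.72, 2.23 and 9.14 in old WT and 1.66, 1.304 and 1.48 in old AKO. All 3 old WT libraries were above the others. Foxm1 rose with age in WT (1.61 ± 0.44, adjusted p = 0.0245) and fell in old AKO (-1.76 ± 0.44, adjusted p = 0.0415, edgeR).

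Genes of the same pathways outside the 38 were counted from lists. Of all genes, 14.2% were called higher and 8.73% lower with age in WT. In old AKO 5.16% were called lower and 0.796% higher, and with age in AKO 10.4% higher and 7.93% lower. Of 40 other mitosis genes 22 rose and 1 fell with age in WT (median 1.70), with the smallest p for the cohesin protector Cdca5 (2.23 ± 0.51), the cytokinesis regulator Racgap1 (1.54 ± 0.35) and the condensin subunit Ncaph (1.52 ± 0.35). Cks1b, an adaptor of cyclin-dependent kinases, went against the list. Cks1b fell with age in WT (-0.67 ± 0.16, adjusted p = 0.0141) and in AKO (-0.56 ± 0.16, adjusted p = 0.0320, edgeR), from 36.4 ± 8.98 to 22.8 ± 1.69 CPM and from 39.0 ± 2.12 to 26.3 ± 1.53. In old AKO 9 of the 40 fell and 0 rose (median -1.64), with the smallest p for the spindle pole gene Aspm (-3.66 ± 0.72), the cytokinesis factor Ect2 (-1.83 ± 0.40) and the centromeric histone Cenpa (-2.24 ± 0.53). With age in AKO the securin gene Pttg1 rose (0.43 ± 0.13) beside the fall of Cks1b. Casc5, Cdc25c, Depdc1a, Hmmr and Kif4 of this list passed the filter only through old WT, so any calls of theirs carry no weight. They are included in the counts above.

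Of 30 other replication genes 13 rose with age in WT (median 0.75), the smallest p being that of the methylation maintenance factor Uhrf1 (2.08 ± 0.44), the licensing inhibitor Gmnn (1.503 ± 0.32) and thymidine kinase Tk1 (2.64 ± 0.63). In old AKO Tk1 alone fell (-2.75 ± 0.63, list median -0.65), where 5.16% of all genes were called lower. With age in AKO 1 of the 30 rose (list median 0.02), where 10.4% of all genes were called higher. Without old WT replicate 3 the rises with age in WT were 2 of 40 and 3 of 30, where 8.19% of all genes were called higher. The medians in old AKO were then -0.89 and -0.28, with none called by edgeR, where 2.39% of all genes were called lower.

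Upstream regulators were counted in a pair of lists. Of all genes, 14.2% were called higher and 8.73% lower with age in WT, and 10.4% higher with age in AKO. Of 6 G1 cyclins and kinases Cdk6, a partner of D cyclins, alone rose with age in WT (1.73 ± 0.39) and in AKO (1.79 ± 0.39). Of 18 pocket protein, E2F and MuvB genes, the repressor E2f8 rose (2.41 ± 0.79) and the MuvB subunit Rbbp4 fell (-0.38 ± 0.10) with age in WT, neither of them without old WT replicate 3, and the list median was 0.04. E2f8 had 6, 19 and 13 estimated reads in young WT and 40, 26 and 142 in old WT. In young AKO it had 4, 0 and 4, and in old AKO 8, 10 and 10. It passed the filter only through old WT, so its call carries no weight. In old AKO 2 of 6 and 4 of 18 had an unadjusted p under 0.05, as did 3319 of all 15068 genes, with none called by edgeR. The medians of these lists were -0.38 and -0.07, against -1.46 for the 38 members.

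Other cell types were counted in the same fit. Of all genes, 14.2% were called higher with age in WT, 10.4% higher with age in AKO and 5.16% lower in old AKO. Progenitor and fibroblast markers rose in 10 of 13 with age in WT (median 1.09) and in 8 of 13 in AKO (median 1.47), and fell in 4 of 13 in old AKO (median -0.87). Endothelial markers rose in 3 of 11 with age in WT (median 0.70) and 9 of 11 in AKO (median 1.05). In old AKO 4 of 11 had an unadjusted p under 0.05, as did 3319 of all 15068 genes, with none called by edgeR (median -0.55). In young AKO against young WT, progenitor markers fell in 2 of 13 (median -1.16) and endothelial markers in 1 of 11 (median -1.03). Of all 15068 genes, 119 were called lower there. Of the endothelial markers 10 of 11 had an unadjusted p under 0.05 there, against 2943 of all 15068 genes, and the 7 mesothelial markers had a median of -1.37. Their part in the members' median of -0.30 there was not tested. The sums were 1636, 1803 and 1506 CPM in young WT, 1475, 1553 and 1277 in young AKO, 2107, 2293 and 2267 in old WT and 1449.8, 1602 and 1349 in old AKO for progenitors, and 768, 1452 and 1136 CPM in young WT, 654, 541 and 487 in young AKO, 1704, 2292 and 1263 in old WT and 1491, 1099.5 and 947 in old AKO for endothelium. Old WT replicate 3 was not the highest library in either sum. In old WT replicates 1, 2 and 3, T and NK cell markers summed to 3.09, 3.93 and 4.72 CPM and neutrophil markers to 15.6, 11.6 and 16.8. B and plasma cell markers ran from 11.5 to 24.5 CPM in old WT and 6.13 to 14.1 in old AKO. Mesothelial markers summed to 20.2 to 72.9, 8.31 to 24.95, 81.0 to 149 and 45.8 to 103 CPM in young WT, young AKO, old WT and old AKO. Old WT replicate 3 was the highest of the 12 libraries in the T and NK cell, neutrophil and mesothelial sums. Markers of testis germ cells, which divide by meiosis, summed highest in old AKO replicate 1 at 120.6 CPM with Sycp1 at 0 in every library, and epididymis markers summed to at most 7.93 CPM with Defb41 and Lcn5 at 0 in every library.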

How the data were processed

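Poly-A RNA of epididymal primary adipocytes was sequenced as TruSeq mRNA libraries on a HiSeq4000, per the labels' protocols. The submitters' processing notes name HISAT2 2.1.0, HISAT, Bowtie2, StringTie 1.3.4d and mm10, with no role for each. For each transcript in each library, the authors deposited an estimated count, a whole number of reads that is not scaled for depth. The FPKM values deposited by the authors beside them were used for levels per length and in an alternative. An empty line of the table is not analysed here.

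Estimated counts were summed per gene symbol, filtered with filterByExpr (minimum count 10) and scaled by TMM, and 15068 genes in 12 libraries were fitted with a mean per group (edgeR 4.0.16, R 4.3.3, 8 residual and 2.89 prior degrees of freedom, biological coefficient of variation 24.7%). Quasi-likelihood F-tests are two-sided, with p-values adjusted by Benjamini-Hochberg over all genes tested. Alternatives used limma 3.58.1 and DESeq2 1.42.0, other scalings and filters, transcripts left unsummed and libraries left out. CPM are scaled by TMM. The fit was tested on simulated counts, with changes set in genes of at least 1 CPM on average. Over the 4 group comparisons it recovered 7.46% to 14.9% of 1.5-fold changes and 46.3% to 64.2% of 2-fold changes. Of 4-fold changes it recovered 92.4% to 93.9%, with 2 to 10 false calls. The simulated counts had no library set apart as old WT replicate 3 is, and no change in genes below 1 CPM. The shares do not carry over to members below 1 CPM or to comparisons with old WT. A member not called can thus still differ by these or larger folds. In old AKO against old WT, Cenpf (-2.51 ± 0.67) and Birc5 (-2.30 ± 0.63, edgeR log2) were not called.

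The members and lists were chosen with earlier results of these data known. Named genes were, by rule, the member with the highest mean CPM in each role, the markers Cdk1, Top2a and Mki67, members called or going against the members' direction, Crtc2, and from other lists up to 3 called genes with the smallest p and those against their list. Cenpf, Kif20a and Cdca3 are outside that rule and were named to account for every member. Replicate numbers are only names: deviations of same-numbered libraries from their group means correlated at -0.28 to 0.18, which does not pair them. Promoters are from RefSeq (GRCm38.p6), and the table used holds no window for Aurkb, Ccna2, Ccne2, Foxm1, Kif20a, Pbk and Tpx2. Overlapping or antisense genes cannot be told apart where counting by strand is not given in the sources used here.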

Additional observations from a re-analysis of the deposited data

How the results depend on the processing

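Counts of called cell division genes depended on the test and on single libraries. No called gene reversed under the alternatives run, where 772 values for single genes kept their side of the threshold and 348 no longer passed. Counts here are followed by the percent of all genes called in either direction. For old AKO against old WT (17 called, 5.95%), DESeq2 called 30 (13.2%), limma-voom 3 (4.07%) and limma on log2(FPKM + 1) 11 (7.56%). A fit of only the groups compared gave 0 (1.38%) and transcripts left unsummed 0 (0.106%). The fit without the 2 libraries that stood apart (replicate 3 of old WT, replicate 1 of young WT) gave 6 (3.35%). For old WT against young WT (29, 22.9%), the fit of only the groups compared gave 2 (7.20%), the fit without those 2 libraries 11 (23.8%) and unsummed transcripts 13 (10.5%). For old AKO against young AKO (3, 18.4%), DESeq2 gave 6 (25.7%), limma-voom 1 (16.9%) and limma on log2(FPKM + 1) 1 (13.2%). Only the groups compared gave 9 (24.5%), the fit without those 2 libraries 10 (26.8%) and unsummed transcripts 0 (6.54%). For young AKO against young WT (0, 0.976%), DESeq2 gave 1 (9.08%) and the fit without those 2 libraries 4 (5.60%). Leaving out each library in turn gave 0 to 1 calls in young mice (0.0326% to 3.02% of all genes) and 0 to 26 for the genotypes in old mice (0.0261% to 6.74%). It gave 10 to 33 for age in WT (9.85% to 28.8%) and 0 to 8 for age in AKO (4.80% to 24.5%). With the replicate number as a replicate block, the counts were 0 for the genotypes in old mice (0.0796%), 26 for age in WT (18.7%) and 2 for age in AKO (14.7%), but the numbers do not pair these libraries. The interaction gave 0 in every alternative. The members' medians kept their sign but not their size: without old WT replicate 3 the median went from 1.62 to 0.94 for age in WT, from -1.46 to -0.77 for the genotypes in old mice and from -1.12 to -0.46 for the interaction, and on log2(FPKM + 1) that for age in WT was 0.76. The cause of these differences was not tested. Members with few reads, such as Bub1, Pbk and Cenpf, limit what can be seen outside old WT, and p-values cover only the spread between these 12 libraries.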

Other observations

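The split of reads between transcripts of a gene, which the sums above do not show, was uneven. All reads of Cdc6 were assigned to a single one of its 2 transcripts in all 12 libraries, and in old WT replicate 3 (171 reads) and old AKO replicate 2 (71 reads) it was the other transcript than in the remaining 10 libraries. Aurka had all reads on a single transcript in 9 of 12 libraries and Kif20a in 11, and in both the transcript with most reads changed between libraries. For these genes the value of a single transcript moves with that assignment, and the sum per gene was used for every result above.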
